A study of Mus musculus with 36 samples.

Results

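The complement system was followed across 30 genes, taken as the rows of the deposited count table that carry the member symbols, out of 32544 symbols in all. All 30 members passed the filter on low counts, which left 15338 genes for testing. Complement is a cascade of plasma proteins, made largely by hepatocytes, that tags microbes and damaged cells, recruits leukocytes through small peptides and can build a pore in a membrane. It is started by the classical pathway (C1q with its proteases), the lectin pathway (mannose-binding lectins with MASP proteases) or the alternative pathway (factors B and D and properdin), all of which meet at C3. C1q is unusual among the plasma components in that macrophages, Kupffer cells among them, are its main source, and soluble and membrane-bound regulators hold the cascade in check.

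Total RNA of livers from male C57BL/6N mice was sequenced in 6 groups of 6 libraries. The mice were 8 to 10 weeks old at the start. The CCl4 groups received carbon tetrachloride, a liver toxin, dissolved in olive oil (1 g/kg) by repeated intraperitoneal injection for 2, 6 or 12 months. The oil groups received the solvent alone for 2 or 12 months, and the livers of all injected mice were collected 6 days after dosing ended. For month 0 the titles say control and the treatment field says olive oil. Month 6 has no oil group here, so its CCl4 mice were compared with the average, in log2 units, of both oil groups, month 2 and month 12. Nothing further says how the libraries of a group were drawn, so p-values measure the spread between these 6 livers. Groups of different months also differ in the age of the mice and the number of injections, which cannot be told apart.

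Library totals ranged from 19403247 to 28917545 counts, and all 7 hepatocyte markers in the table were present in each library. Some libraries stood apart. Month 2 CCl4 replicate 1 held 222.1 summed CPM of neutrophil markers, where CPM is the count per 1000000 counts of the library as scaled by TMM, and month 12 oil replicate 2 and month 6 CCl4 replicate 2 held 142.1 and 109.9 summed CPM of mesothelial markers, against 8.99 to 48.8 in the month 12 CCl4 group. Transcripts of pancreas varied from 0.137 to 16780 summed CPM between libraries of all groups. A gene was called higher or lower at an adjusted p below 0.05 in the quasi-likelihood F-test of edgeR over all 15338 genes. These are bulk livers, so fewer cells of a type and less RNA per cell cannot be told apart.

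The stretches before the start sites of 4 members are shown because 3 of these genes fell most among the terminal components at month 12 while the other, C3, rose. They are the 250 bases upstream of the RefSeq start sites on GRCm38.p6, 5′ to 3′ on the strand of the gene, at chr4:104876399-104876648 (minus strand) for C8a, chr4:104766067-104766316 (plus strand) for C8b, chr15:6445096-6445345 (plus strand) for C9 and chr17:57228137-57228386 (minus strand) for C3. In GENCODE vM21 the genes themselves span chr4:104815679-104876398 (C8a), chr4:104766317-104804548 (C8b), chr15:6445327-6498751 (C9) and chr17:57203970-57228136 (C3). C8a and C8b are neighbours on chromosome 4 that are transcribed towards each other. Capitals mark matches on either strand to GTTAAT (an HNF1 half-site), TTGCNNAA (a C/EBP motif) or TTCNNNGAA (a STAT motif).
C8a: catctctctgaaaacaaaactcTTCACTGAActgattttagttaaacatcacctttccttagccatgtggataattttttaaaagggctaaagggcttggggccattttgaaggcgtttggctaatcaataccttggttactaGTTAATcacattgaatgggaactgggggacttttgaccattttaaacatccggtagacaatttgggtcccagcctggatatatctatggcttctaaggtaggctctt
C8b: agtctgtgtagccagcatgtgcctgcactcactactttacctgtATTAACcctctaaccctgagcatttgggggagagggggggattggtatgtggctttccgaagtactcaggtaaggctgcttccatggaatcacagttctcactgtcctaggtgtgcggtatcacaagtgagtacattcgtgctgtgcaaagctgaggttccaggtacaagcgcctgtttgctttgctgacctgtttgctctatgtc
C9: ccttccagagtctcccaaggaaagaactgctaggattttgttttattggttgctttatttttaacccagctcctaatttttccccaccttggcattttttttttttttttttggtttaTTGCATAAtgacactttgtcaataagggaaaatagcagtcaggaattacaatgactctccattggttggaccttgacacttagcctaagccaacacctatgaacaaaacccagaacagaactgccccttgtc
C3: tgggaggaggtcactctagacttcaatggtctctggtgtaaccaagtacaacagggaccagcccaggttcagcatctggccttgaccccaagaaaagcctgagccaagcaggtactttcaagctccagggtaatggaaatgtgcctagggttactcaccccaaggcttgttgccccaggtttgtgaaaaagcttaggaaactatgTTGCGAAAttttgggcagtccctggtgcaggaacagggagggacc
The C8a window held a STAT match starting 228 bases and an HNF1 half-site 107 bases before the start site. The C8b window held an HNF1 half-site on the opposite strand, 206 bases before the start. C9 and C3 each held a C/EBP match, 132 and 45 bases before the start. The 3 motifs do not overlap in these windows. Over all 32851 windows of the same length the HNF1 half-site was in 6.43%, the C/EBP motif in 9.56% and the STAT motif in 7.02%, and over the 26 windows matched to 23 of the 30 members they were in 7, 3 and 3. No window was matched for C1qa, C2, C4b, Masp1, Cfb, Cfi and Serping1. A match is a run of letters and was not tested as a site.

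Few members changed early and most had changed by month 12. At month 2, 3 members were called higher and 3 lower with CCl4, where 10.4% of all genes were called (7% higher, 3.38% lower). At month 6, 2 were called higher and 9 lower, where 11.4% of all genes were called (7.71% higher, 3.68% lower). At month 12, 5 were called higher and 17 lower, where 49.1% of all genes were called (25.9% higher, 23.2% lower). The median log2 fold change of the 30 members was 0.005, -0.21 and -0.40 at months 2, 6 and 12, against 0.00, 0.00 and 0.01 over all genes. The CPM values of CCl4 and oil mice did not overlap for 2 members at month 2, 2 at month 6 and 16 at month 12, which held for 7.04%, 1.81% and 22.3% of all genes.

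Single mice decided much of the month 2 count. Of its 6 calls, only that of Susd4 held whichever mouse was left out, and C1qb, C1qc, C6, C4bp and C3ar1 each missed the threshold without at least 1 mouse, with the direction kept. Without 4 libraries set aside for transcripts of other tissues, 2 members were called at month 2, Susd4 and C4bp. In that fit 540 of all genes were called higher and 344 lower. Other libraries with such transcripts were kept, among them month 2 CCl4 replicate 5, with 16780 summed CPM of pancreas markers.

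**Figure D1:**
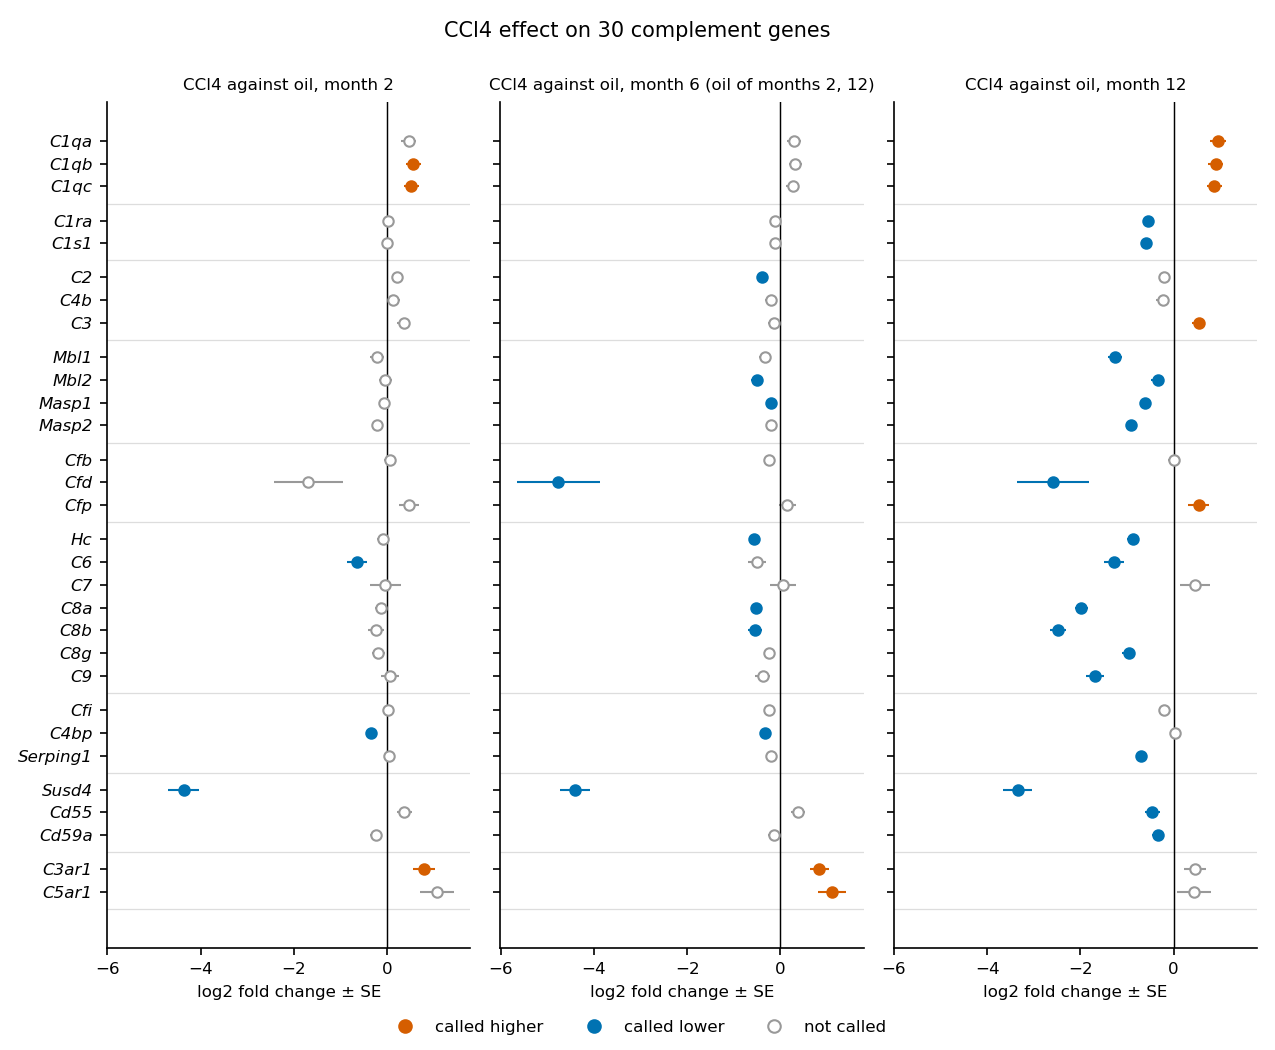
Log2 fold change of CCl4 against oil (x axis, bars are the standard error of the fit) for the 30 complement genes (y axis, by role from the C1q chains at the top to the receptors at the bottom) at months 2, 6 and 12. Filled points passed the adjusted p of 0.05 and open points did not. At month 12 the 3 C1q genes lie near 0.9 on the right while 6 of the 7 terminal components lie between -0.88 and -2.48.

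The direction of the smaller changes depends on the scaling. With library totals alone in place of TMM, the median gene moved up by 0.20, 0.31 and 0.56 on the log2 scale at months 2, 6 and 12. The members then split into 10 higher and 1 lower at month 2 and 9 higher and 3 lower at month 6. At month 12 they split into 13 higher and 10 lower. Of all 15338 genes, 3160, 8884 and 10331 were called higher under that scaling and 179, 177 and 592 lower. The 5 members called higher at month 12 were called higher under both scalings. Of the 17 called lower, 10 were called lower under both: Mbl1, Masp2, Cfd, Hc, C6, C8a, C8b, C8g, C9 and Susd4. All other calls below are relative to the bulk of genes as TMM sets it.

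C1qa, C1qb and C1qc encode the 3 chains of C1q, the recognition part of the classical pathway, and lie side by side on chromosome 4. In month 12 oil mice C1qb had between 52.8 and 78.0 CPM with a median of 65.4, and in month 12 CCl4 mice between 96.9 and 155 with a median of 121. Every CCl4 mouse was above every oil mouse, a log2 fold change of 0.91 ± 0.16 (SE, edgeR adjusted p = 1.7e-05). C1qa, at 44.5 to 66.6 CPM in oil and 75.1 to 131 in CCl4, and C1qc, at 51.2 to 73.3 and 87.8 to 147, were likewise separated, with log2 fold changes of 0.95 and 0.87.

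The rise was smaller at month 2. There C1qb had a median of 57.1 CPM in oil (49.7 to 69.3) and 79.8 in CCl4 (63.4 to 113), and its log2 fold change was 0.56 ± 0.16 (edgeR adjusted p = 0.019). C1qc was also called higher by edgeR, by 0.52 (adjusted p = 0.032), and C1qa, with 0.46 and an adjusted p of 0.074, was not called. The groups overlapped for all 3 chains. Without CCl4 replicate 1, the library with the most neutrophil transcripts, C1qb was at 0.45 (edgeR adjusted p = 0.068) and C1qc at 0.42 (adjusted p = 0.096). At month 6 none of the 3 was called, and C1qb spread from 44.7 to 109 CPM. Without replicate 6, its lowest mouse, C1qb was called higher there, by 0.42 (edgeR adjusted p = 0.027).

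The chains kept close proportions in each liver. Per kb of exon, C1qb was 1.03 to 1.29 times C1qa and 1.71 to 2.11 times C1qc over all 36 mice, as medians 1.17 and 1.92. Their rise went with that of macrophage markers. Of 8 pan-macrophage markers, 7, 4 and 6 were called higher at months 2, 6 and 12 and none lower, and their summed level was 543 to 824 CPM in month 12 oil and 913 to 1391 in month 12 CCl4. Of 8 markers of monocyte-derived macrophages, 7, 7 and 8 were called higher. Of 8 Kupffer cell markers, 2 were called higher at month 2, and 3 and 2 were called lower at months 6 and 12. Over all genes, 7%, 7.71% and 25.9% were called higher and 3.38%, 3.68% and 23.2% lower at months 2, 6 and 12. The mean log2 level of the C1q chains less that of the pan-macrophage markers was 0.30 ± 0.12 (SD, n = 6) in month 12 oil and 0.54 ± 0.14 in month 12 CCl4, and 0.17 ± 0.16 and 0.06 ± 0.12 in the oil and CCl4 groups of month 2. It was 0.02 ± 0.16 in month 6 CCl4 and highest at month 0, at 0.70 ± 0.10. The part of macrophage numbers in the C1q values was not tested.

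The C1 proteases went the other way. C1ra and C1s1 encode C1r and C1s, the proteases that C1q carries, of which C1r activates C1s and C1s cleaves C4 and C2. C1ra had 276 to 305 CPM in month 12 oil (median 292) and 148 to 228 in month 12 CCl4 (median 215), without overlap, a log2 fold change of -0.56 ± 0.08 (edgeR adjusted p = 1.5e-06). C1s1 fell from a median of 556 (486 to 586) to 382 (263 to 470.1), by 0.59 on the log2 scale, also without overlap. Both were near 0 at month 2, at 0.03 for C1ra and 0.00 for C1s1. Replicates 2 and 6 were the lowest CCl4 mice in both genes. Scaled by library totals alone, the month 12 changes were -0.01 and -0.04 and neither was called. Their near-identical copies C1rb and C1s2, on the same stretch of chromosome 6, had at most 0.448 and 0.274 CPM in any library, and no label says how reads that match both copies were assigned.

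C4b and C2 encode the parts of the classical and lectin C3 convertase. C4b had 1406 to 2009.6 CPM in month 12 oil and 1017 to 2193 in month 12 CCl4, and was not called (-0.24 ± 0.14). Its highest CCl4 value came from replicate 6, and without that mouse C4b was called lower at -0.39 (edgeR adjusted p = 0.0058), while library totals alone gave 0.32 with all mice, called higher. C4a, its close copy, had no row under that symbol in the deposited counts, so reads of C4a may be counted under C4b. C2 was called lower at month 6 (-0.39 ± 0.08, edgeR adjusted p = 0.0015), with 93.4 to 114 CPM against 104 to 144 in month 2 oil and 141 to 175 in month 12 oil. Against month 12 oil all 6 CCl4 mice of month 6 were lower, while against month 2 oil they overlapped. C2 also lay in overlapping groups at month 12 and was not called there (-0.21), but was at -0.24 to -0.27 and called without oil replicate 1 or 2 or CCl4 replicate 6, against 0.34 and called higher under library totals alone.

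C3, the protein on which all 3 pathways act, was the most abundant member per kb of exon in every group, at 1831 ± 456 CPM per kb (SD, n = 6) in month 12 CCl4 and 1260.2 ± 222 in month 12 oil. The month 12 oil mice had 5524 to 8666 CPM with a median of 6121 and the month 12 CCl4 mice 7184 to 13276 with a median of 8600.4. The groups overlapped only in the highest oil mouse, replicate 4, which was above 3 of the CCl4 mice. The log2 fold change was 0.54 ± 0.14 (edgeR adjusted p = 0.0015). C3 was not called by edgeR at month 2 (0.36, adjusted p = 0.09) or month 6 (-0.14).

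**Figure D2:**
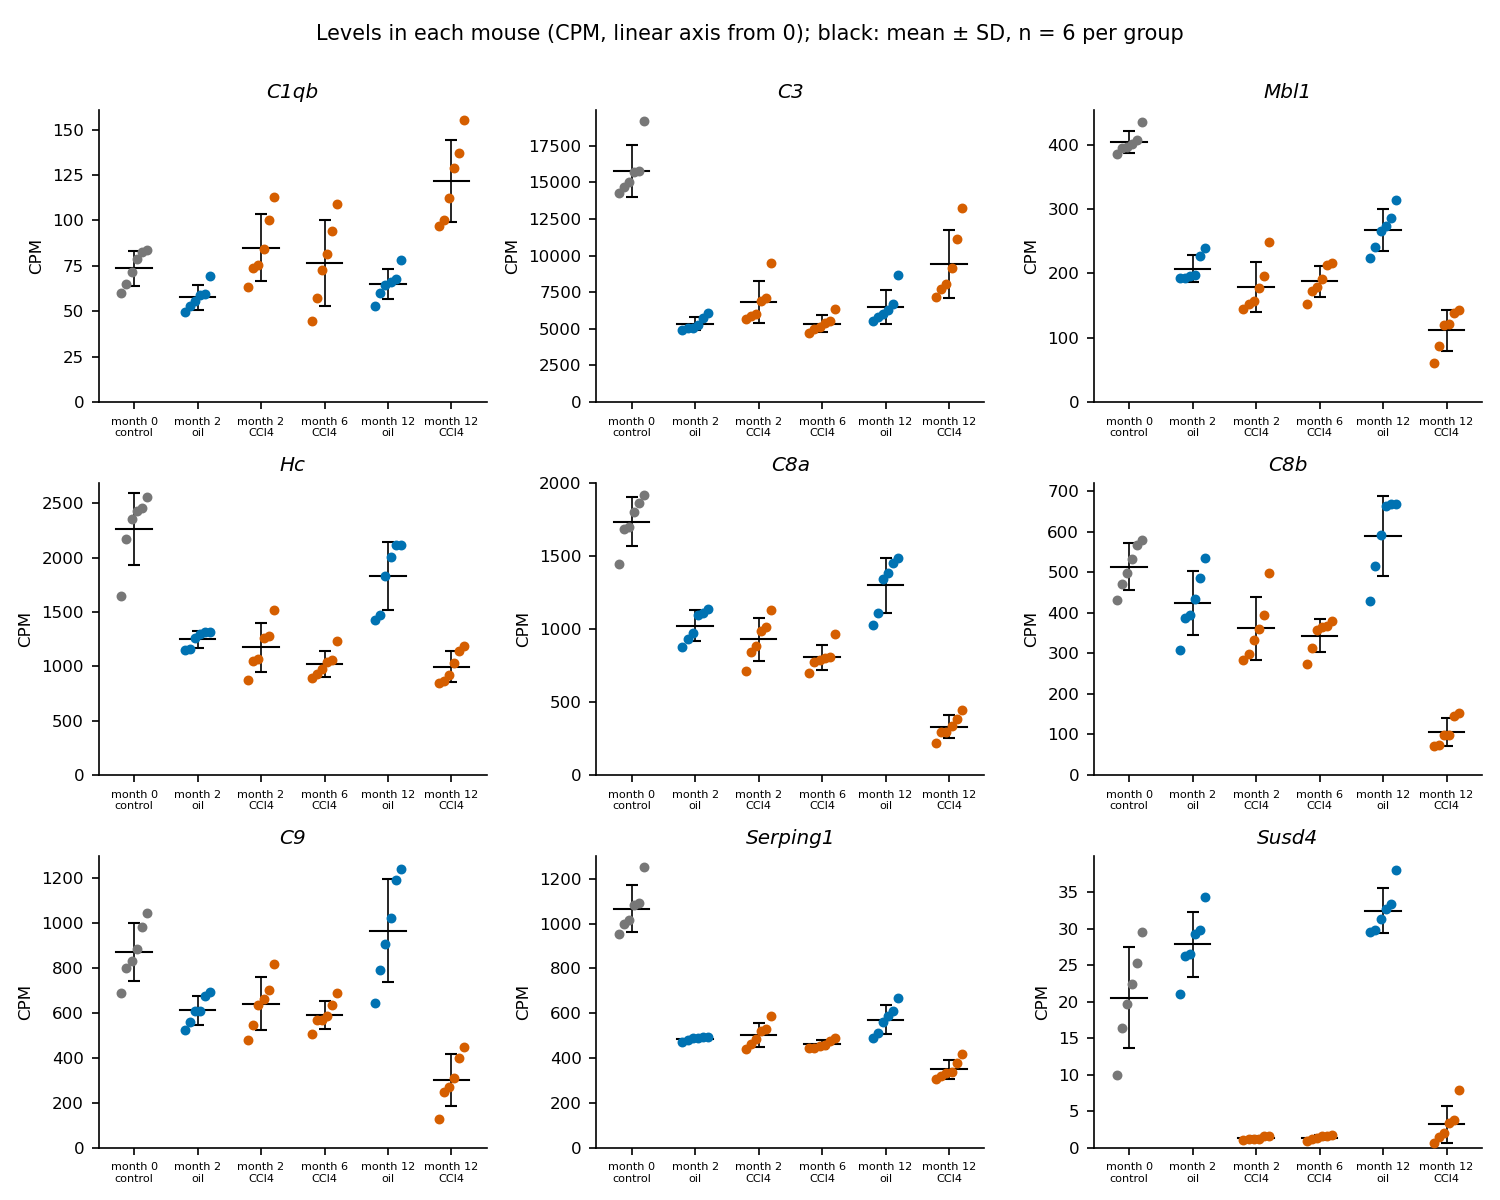
CPM of 9 members in each mouse (points, y axis from 0) by group (x axis), with the mean and SD of 6 mice in black. CCl4 is orange, oil blue and month 0 grey. In month 12 CCl4 all 6 mice lie above the oil mice for C1qb and below them for Mbl1, Hc, C8a, C8b, C9, Serping1 and Susd4, while C3 is highest at month 0.

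All 4 lectin pathway members were called lower at month 12. Mbl1 and Mbl2 encode mannose-binding lectins, which recognise sugars on microbes, and Masp1 and Masp2 the proteases they carry. Mbl1 had 223 to 315 CPM in month 12 oil (median 269) and 60.1 to 144 in month 12 CCl4 (median 120.4), with no overlap and a log2 fold change of -1.26 ± 0.15 (edgeR adjusted p = 1.7e-08). Masp2 fell from 133 to 197 CPM to 74.6 to 104, by 0.90 on the log2 scale, also without overlap.

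Mbl2 changed less than Mbl1, with 211 to 299 CPM in oil and 142 to 226 in CCl4 at month 12, in overlapping groups. Its log2 fold change was -0.34 ± 0.14 (edgeR adjusted p = 0.049), which no longer passed when any 1 of 10 of the 12 mice was left out, with values of -0.24 to -0.37. Per kb of exon, Mbl2 was 1.15 to 1.73 times Mbl1 in month 12 oil and 2.12 to 3.42 times in month 12 CCl4, and 0.59 to 1.18 times at month 0. Month 2 showed no such gap between treatments, with 1.92 to 3.10 in oil and 1.84 to 3.35 in CCl4. Masp1, which was counted over all its isoforms, had 57.3 to 72.8 CPM in month 12 oil and 31.3 to 45.5 in CCl4 (-0.62), without overlap. With library totals alone its change was -0.07 and was not called. At month 6 Mbl2 (-0.50) and Masp1 (-0.21) were called lower, the latter with an adjusted p of 0.044 that 9 single mice moved past the threshold, and under library totals alone its sign turned (0.11).

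The alternative pathway members did not move together. Cfb, the protease part of the alternative convertase, was at 1116 to 1591 CPM in month 12 oil and 1135 to 1942 in month 12 CCl4. Its log2 fold change was 0.01 ± 0.12, or 0.57 and called higher under library totals alone. Cfp encodes properdin, which steadies that convertase and comes largely from myeloid cells. It had 25.0 to 32.4 CPM in oil and 20.6 to 73.6 in CCl4 and was called higher at month 12 (0.54 ± 0.22, edgeR adjusted p = 0.039), with the CCl4 mice spread on both sides of the oil mice. That call was lost without any 1 of 8 of the 12 mice, and without replicate 4 of the CCl4 mice the value was 0.34 (edgeR adjusted p = 0.18).

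Cfd encodes factor D, or adipsin, which activates factor B and is made mostly by adipocytes. It was a low gene, at 0.635 to 10.2 CPM in month 12 oil, 0 to 2.18 in month 12 CCl4 and 0 to 0.404 in month 6 CCl4. It was called lower at month 6 (-4.76 ± 0.89, edgeR adjusted p = 0.00039) and month 12 (-2.59 ± 0.77, adjusted p = 0.0060). The month 6 libraries held 0 to 12 counts of Cfd each, so the fitted size depends on the prior count of the fit. At month 2 the groups overlapped and Cfd was not called (-1.69). Adipocyte markers moved with it. All 4 tested adipocyte markers were called lower at months 6 and 12 and 1 at month 2, and the summed level of the 5 markers was 1.09 to 6.72 CPM in month 12 oil, 0.248 to 1.53 in month 12 CCl4 and 0.425 to 0.997 in month 6 CCl4. Among all genes, 3.38%, 3.68% and 23.2% were called lower at months 2, 6 and 12. Lep was at 0 in all 6 month 6 libraries and Adipoq, the other defining marker, at 0 in 2 of them. The part of fat cells in the Cfd values was not tested.

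The terminal components, which assemble into the membrane pore, held steep falls at month 12, though Susd4 and Cfd fell further. Of the 7, 6 were called lower, with a median log2 fold change of -1.28 over the 7. C8b, 1 of the 3 chains of C8, had 430.2 to 669.5 CPM in month 12 oil with a median of 629 and 70.3 to 152 in month 12 CCl4 with a median of 98.5. Its log2 fold change was -2.48 ± 0.18 (edgeR adjusted p = 4.5e-13), a level 0.18 of that in oil. The highest CCl4 mouse was well below the lowest oil mouse.

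C8a, the chain that inserts into the membrane, fell by 1.98 ± 0.13 on the log2 scale (edgeR adjusted p = 1.5e-13), from 1031 to 1487 CPM in oil to 222 to 446 in CCl4. C8g, the lipocalin-like chain bound to C8a, fell by 0.97 ± 0.13, from 266 to 385 CPM to 105 to 202. The 3 C8 chains thus stood in different proportions. Per kb of exon C8b was 0.79 to 1.47 times C8g in month 12 oil and 0.30 to 0.45 times in month 12 CCl4, without overlap. C8a was 1.38 to 2.24 times C8g in oil and 0.623 to 1.499 times in CCl4, where 1 CCl4 mouse reached into the range of oil.

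C9, which polymerises into the wall of the pore, had 646 to 1243 CPM in month 12 oil with a median of 965 and 127 to 451 in CCl4 with a median of 291. Its log2 fold change was -1.68 ± 0.19 (edgeR adjusted p = 1.2e-08) and the groups did not overlap. C6, which binds the start of the complex, fell by 1.28 ± 0.22, from 240.2 to 399.5 CPM to 74.4 to 183. Hc, the gene for C5, whose cleavage opens the terminal pathway, fell by 0.88 ± 0.13, from 1428 to 2119 CPM to 841 to 1181.

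C7 was the exception. It was a low gene, at 2.48 to 13.9 CPM in month 12 oil and 3.71 to 12.1 in month 12 CCl4, and was not called (0.47 ± 0.32). The value of 13.9 came from the oil library with the most mesothelial transcripts, replicate 2, and the other 5 oil mice had at most 4.69. Without that mouse C7 was called higher, by 1.08 (edgeR adjusted p = 0.00085). Per kb of exon, the order of the other 6 in month 12 oil ran from C9 (378 ± 90.3 CPM per kb, SD, n = 6) and C8a (358 ± 51.8) through Hc (292 ± 49.6), C8b (232 ± 39.0) and C8g (221 ± 30.3) to C6 (90.5 ± 19.9). C9 and C8a differed by less than their spread there, as did C8b and C8g. In month 12 CCl4 it ran from Hc (159 ± 22.8) through C9 (118 ± 45.1), C8g (113 ± 25.99), C8a (90.7 ± 21.5) and C8b (41.7 ± 13.7) to C6 (37.2 ± 10.6), where C9, C8g and C8a, and likewise C8b and C6, lay within each other's spread.

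These falls were late. At month 2 only C6 of the 7 was called, lower by 0.64 ± 0.21 (edgeR adjusted p = 0.048), with 169.5 to 392 CPM in oil and 136 to 254 in CCl4, a call that was lost without any 1 of 9 of the 12 mice. At month 6 Hc (-0.57), C8a (-0.52) and C8b (-0.55) were called lower. Against month 2 oil alone, Hc (-0.29), C8a (-0.34) and C8b (-0.31) were not called. There 3 members in all were called lower, as were 398 of all genes. Hc, C8a and C8b were themselves higher in month 12 than in month 2 oil by 0.55, 0.35 and 0.48, none of which passed, so the reference bears on these 3 values.

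Of the 7 hepatocyte markers tested, 1, 0 and 4 were called lower at months 2, 6 and 12 and none higher. At month 12 their median log2 fold change was -0.57, and their summed level was 60710 to 104900 CPM in oil and 63730 to 99680 in CCl4. Their mean log2 level, in which each marker counts alike, was 11.98 to 12.51 in oil and 11.57 to 11.83 in CCl4, without overlap. Among the markers not called at month 12 were Hnf4a (-0.16) and Alb (0.24), which do not stand for the list. The part of hepatocyte number in the terminal components was not tested. C6 and Susd4 also stand on the list of 12 genes known to be higher in male than in female liver, of which 8, 8 and 12 were called lower at months 2, 6 and 12. These counts include C6 and Susd4 themselves where called. Of all genes, 3.38%, 3.68% and 23.2% were called lower.

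The interaction of CCl4 and month tests whether the effect at month 12 differed from that at month 2. It was called for 13 members, all lower at month 12, where 21.3% of all genes were called (11.2% higher, 10.1% lower). C8b (-2.24 ± 0.24, edgeR adjusted p = 2.8e-08), C8a (-1.84), C9 (-1.75) and Mbl1 (-1.05) had the steepest values, followed by Cd55, Hc, C8g, Serping1, Masp2, C1ra, C1s1, Masp1 and C2 between -0.83 and -0.42. C2 missed the threshold without month 12 CCl4 replicate 2 (-0.33, edgeR adjusted p = 0.052). None of the C1q chains was among them, with 0.35 to 0.49 and edgeR adjusted p values of 0.15 to 0.29. With library totals alone 7 of the 13 were still called lower. The C1q chains, C3, C4bp and Susd4, 6 other members, were then called higher at month 12 than at month 2. Of all genes, 5115 were called higher and 438 lower under that scaling. Within CCl4 mice, 8 members rose and 12 fell from month 6 to month 12. There 39.2% of all genes were called (20.6% higher, 18.6% lower). C8b (-1.69), C8a (-1.29) and C9 (-0.97) fell and C3 (0.82), C1qa (0.73), C1qc (0.69) and C1qb (0.67) rose. With library totals alone 11 members rose and 11 fell, against 4823 of all genes called higher and 1284 lower. From month 2 to month 6, C2 (-0.46) and Mbl2 (-0.68) were called lower, where 0.502% of all genes were called (0.274% higher, 0.228% lower). Both lay without overlap, as did 1.02% of all genes, and without replicate 2 of month 6 neither was called. Between months 6 and 12, 12 members did not overlap, as did 14.5% of all genes.

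Setting the terminal components against C1q puts a hepatocyte product beside a macrophage product in the same liver. The mean of log2(CPM + 1) over Hc, C6, C8a, C8b, C8g and C9 less that over the 3 C1q chains was 3.303 ± 0.32 (SD, n = 6) at month 0, 3.38 ± 0.20 in month 2 oil and 3.57 ± 0.33 in month 12 oil. It was 2.68 ± 0.35 in month 2 CCl4, 2.78 ± 0.40 in month 6 CCl4 and 1.12 ± 0.37 in month 12 CCl4. The month 12 CCl4 mice, at 0.77 to 1.83, lay below all other mice, of which the lowest stood at 2.09 in month 2 CCl4. CCl4 minus oil was -0.70, -0.69 and -2.46 at months 2, 6 and 12. Both sides moved at month 12, as the terminal mean went from 9.48 to 7.91 and the C1q mean from 5.91 to 6.80. This is a description with no test, because the genes were chosen with results known, and it is nearly free of the scaling, with -2.45 at month 12 under library totals alone.

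**Figure D3:**
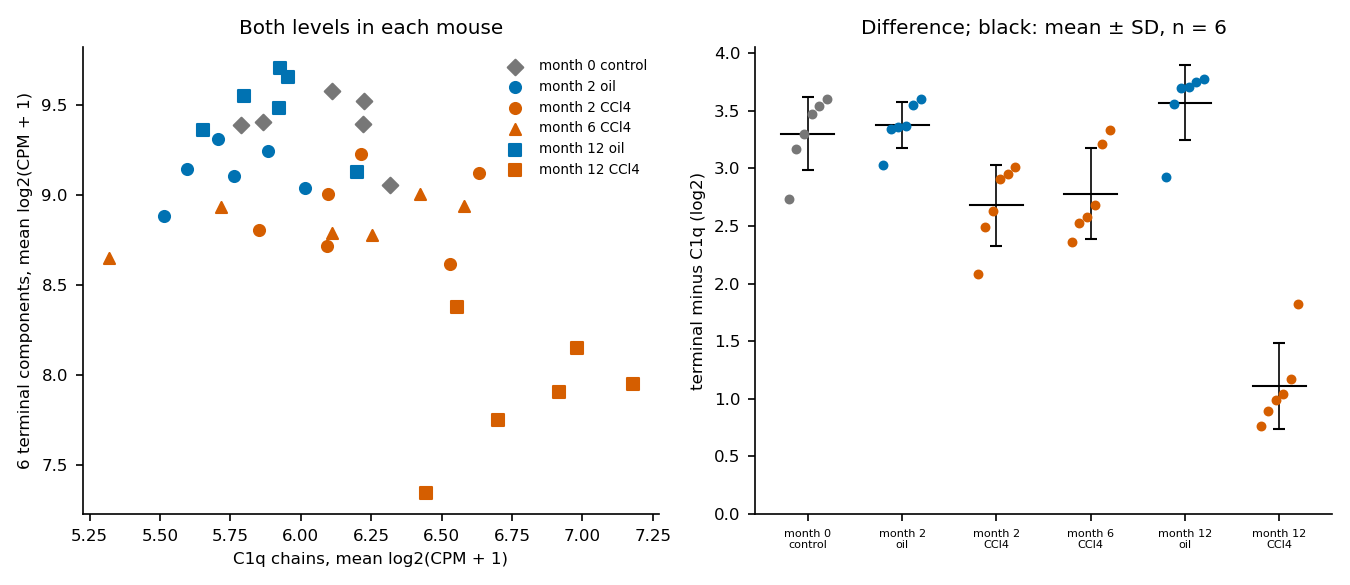
Left, mean log2(CPM + 1) of 6 terminal components (y axis) against that of the 3 C1q chains (x axis), 1 point per mouse. Right, their difference on the log2 scale by group, with the mean and SD of 6 mice in black. The month 12 CCl4 mice sit at the lower right of the left panel and between 0.77 and 1.83 in the right panel.

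Among the soluble regulators, Serping1, the gene for C1 inhibitor, which blocks C1r, C1s and the MASPs, fell at month 12. It had 490.1 to 668 CPM in oil and 309 to 421 in CCl4, without overlap (-0.71 ± 0.09, edgeR adjusted p = 3.3e-08). Its value under library totals alone was -0.15, which was not called. C4bp, which speeds the decay of the classical convertase, was called lower by edgeR at month 2 (-0.35, adjusted p = 0.029) and month 6 (-0.33, adjusted p = 0.016) but was at 0.02 at month 12. With any 1 of 5 mice left out the month 2 value missed the threshold. Under library totals alone C4bp was at -0.15 and -0.003 at months 2 and 6, not called, and at 0.59 at month 12, called higher. Its medians were 635 CPM in month 2 oil, 496 in month 2 CCl4, 547 in month 6 CCl4, and 743 in both groups of month 12. Cfi, the protease that inactivates C3b and C4b, was not called against oil at any month and lay between -0.25 and 0.01. Without month 12 oil replicate 2, its lowest oil mouse, it was called lower at months 6 (-0.31) and 12 (-0.32, edgeR adjusted p = 0.0046), whereas library totals alone gave 0.35 at month 12, called higher.

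Susd4, which encodes a membrane protein with complement-inhibiting domains, had the largest change of the members at month 2. Month 2 oil mice had 20.99 to 34.3 CPM (median 27.9) and month 2 CCl4 mice 1.08 to 1.64 (median 1.26). The log2 fold change was -4.37 ± 0.34 (edgeR adjusted p = 1.2e-10), and the groups were far apart. At month 6 it was at 0.90 to 1.77 CPM (-4.41 ± 0.32). At month 12 it had 29.5 to 38.0 CPM in oil and 0.62 to 7.90 in CCl4, still without overlap (-3.34 ± 0.31).

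Susd4 was the only member called at all 3 times. It was called higher in month 12 than in month 6 CCl4 (1.18 ± 0.33), but without replicate 6, the mouse with 7.90 CPM, that value was 0.69 and was not called (edgeR adjusted p = 0.056). The summed level of the male-biased genes, which include Susd4, was 8982 to 14380 CPM in month 2 oil and 6310 to 11610 in month 2 CCl4, and 13810 to 18830 and 1220 to 7863 at month 12. Their mean log2 level did not overlap at month 2, with 7.25 to 8.34 in oil and 5.85 to 6.98 in CCl4. At month 0 Susd4 was at 9.95 to 29.6 CPM.

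Cd55, decay-accelerating factor, and Cd59a, which blocks the assembly of C9, protect the cell's own membrane. At months 2 and 6 Cd55 was at 0.37 and 0.38 with CCl4 and was not called. It had 23.5 to 39.3 CPM in month 2 oil, 32.1 to 47.5 in month 2 CCl4 and 34.3 to 41.3 in month 6 CCl4. Library totals alone gave 0.58 and 0.69 at those months, called higher. At month 12 Cd55 had 26.1 to 34.1 CPM in oil and 9.84 to 27.1 in CCl4 (-0.45 ± 0.17, edgeR adjusted p = 0.023), and Cd59a 43.0 to 59.8 and 32.4 to 48.4 (-0.34, adjusted p = 0.024). The Cd55 value rested on replicates 2 and 6, at 11.8 and 9.84 CPM, and without both it was -0.12 (edgeR adjusted p = 0.38). Cd59a was not called without CCl4 replicate 2, 4 or 6 or oil replicate 1, at -0.27 to -0.31. Both month 12 signs turned with library totals alone, to 0.08 and 0.21. Their close copies Cd55b and Cd59b, which may share reads, had at most 0.858 and 5.20 CPM in any library.

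Replicates 2 and 6 of the month 12 CCl4 group were together the lowest pair of the 6 mice in 11 of the 30 members, among them C1ra, C1s1, Mbl1, Mbl2, C8b and C9. Replicate 2 was the lowest mouse in 15 members and replicate 6 in 10, while replicate 6 was the highest in 6, such as C3, C4b and Cfb. Without both, 5 members were called higher and 15 lower at month 12, where 3619 of all genes were called higher and 2961 lower.

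The receptors for the small peptides of C3 and C5 are carried mainly by myeloid cells. C3ar1 had 7.46 to 16.15 CPM in month 2 oil and 16.16 to 22.1 in month 2 CCl4, so the groups met without overlapping. It was called higher (0.80 ± 0.24, edgeR adjusted p = 0.026), and 5 single mice could each be left out to end that call. C5ar1, at 1.10 to 3.09 and 2.84 to 3.99 CPM, was not called (1.07 ± 0.36, edgeR adjusted p = 0.052). It was called without month 2 oil replicate 6, its highest oil mouse (1.39, adjusted p = 0.013, edgeR).

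At month 6 both were called higher, C3ar1 by 0.84 and C5ar1 by 1.11. Both values rested on replicate 2, at 46.7 and 10.46 CPM, while the other 5 mice had at most 19.1 and 4.38. Without it they were 0.42 (edgeR adjusted p = 0.099) and 0.53 (adjusted p = 0.26). That library also held the highest summed level of pan-macrophage markers of all 36, at 1842 CPM, and 103.8 summed CPM of neutrophil markers. At month 12 C3ar1 was at 0.45 and C5ar1 at 0.44, neither called, or 0.98 and 0.95 and called with library totals alone.

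**Figure D4:**
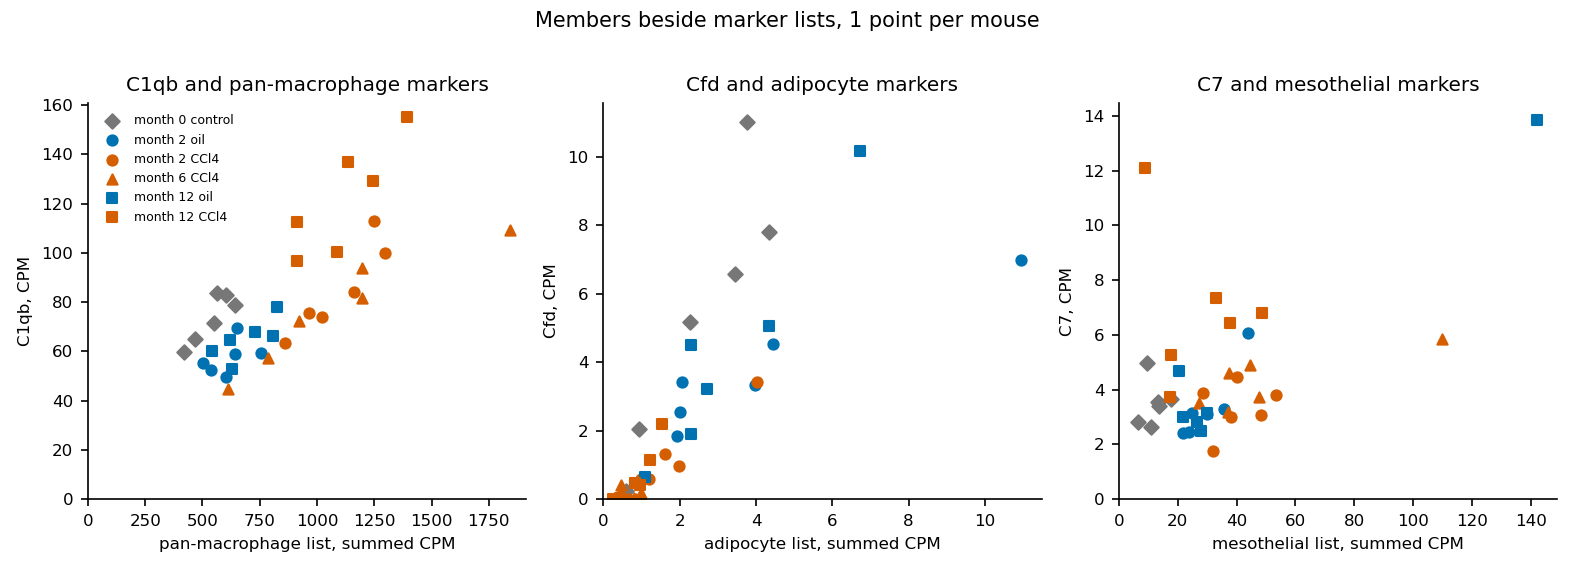
CPM of C1qb, Cfd and C7 (y axes) in each mouse against the summed CPM of pan-macrophage, adipocyte and mesothelial markers (x axes), 1 point per mouse, colours and shapes by group. The month 12 CCl4 mice lie at 913 to 1391 CPM of pan-macrophage markers and 96.9 to 155 CPM of C1qb, the month 6 CCl4 mice lie at the origin of the Cfd panel, and the C7 value of 13.9 belongs to the library with 142.1 CPM of mesothelial markers.

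Of 30 further complement genes on a wider list, 28 were in the table and 25 were tested. With CCl4, 5, 6 and 5 were called higher and 1, 5 and 9 lower at months 2, 6 and 12. Of all genes, 7%, 7.71% and 25.9% were called higher and 3.38%, 3.68% and 23.2% lower. The complement receptor subunits Itgax and Itgb2 and the surface protein Cd93 had the smallest p among those higher at months 2 and 6. Itgax, which is also a marker on the list of monocyte-derived macrophages, had 1.67 to 3.17 CPM in month 12 oil and 7.35 to 13.2 in month 12 CCl4 (2.21 ± 0.26, edgeR adjusted p = 2.3e-08). Cd93 had 11.6 to 18.2 and 28.5 to 55.1 CPM (1.40 ± 0.19). The fluid-phase inhibitor Clu was called higher at month 12 by 0.41.

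Of the genes called lower, the C1r-like protease gene C1rl was the 1 called at all 3 times, at -0.42, -0.27 and -0.80. Colec10, which encodes a liver collectin of the lectin pathway, fell at month 12 from 55.8 to 74.1 CPM to 9.70 to 33.7 (-1.42 ± 0.18, edgeR adjusted p = 8.5e-08), and Vtn, the gene for vitronectin, which holds the terminal complex in solution, by 0.66. Fcna, which encodes ficolin A, another lectin, fell at months 6 (-0.79) and 12 (-0.84). Cfhr2, a factor H-related gene, was also called lower at both (-0.30 and -0.54).

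Complement levels at the start of the study differed from those of the first oil group. From month 0 to month 2 oil, 2 members were called higher and 11 lower. There 31.3% of all genes were called (14.8% higher, 16.4% lower). With library totals alone, which moved the median gene by 0.23, 5 members were called higher and 9 lower. Under that scaling 5270 of all genes were called higher and 1028 lower. C3 had 14256 to 19222 CPM at month 0 and 4886 to 6064 in month 2 oil, far from overlap (-1.56 ± 0.14, edgeR adjusted p = 6.2e-10). C4bp (-1.22), Serping1 (-1.13), C4b (-0.99), Mbl1 (-0.96), Hc (-0.86), Cfb (-0.79), C8a (-0.76) and Cfi (-0.74) were likewise lower without overlap between the groups, and C9 (-0.51) and C2 (-0.35) were lower with overlap. In all, 11 members did not overlap, as did 13.9% of all genes. The C9 call, at an edgeR adjusted p of 0.037, was lost without any 1 of 6 mice. C3ar1 rose from 3.04 to 4.99 CPM to 7.46 to 16.2 (1.55), and C8g from 203 to 258 to 276 to 394 (0.51).

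**Figure D5:**
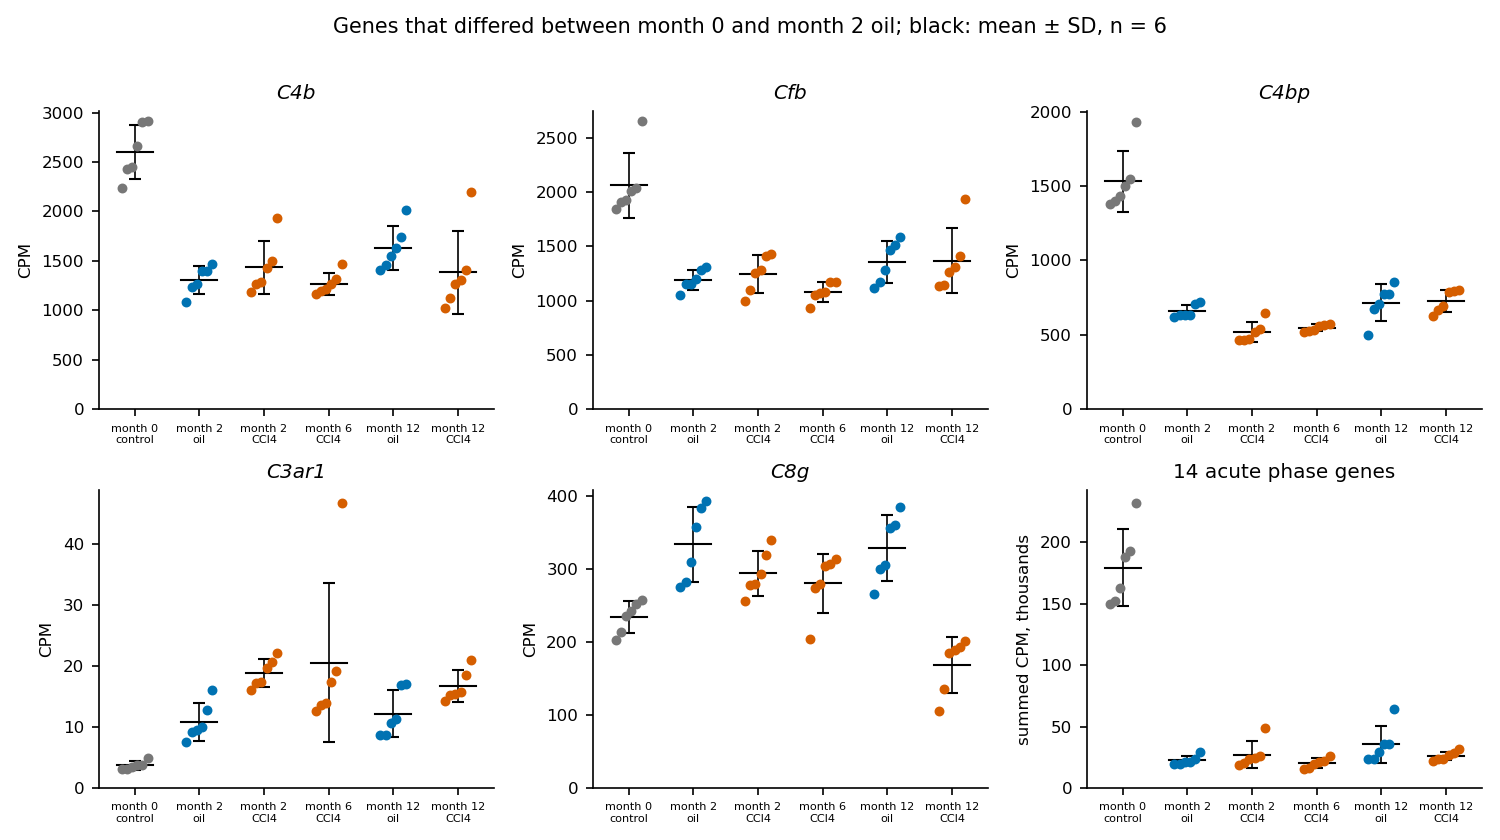
CPM of C4b, Cfb, C4bp, C3ar1 and C8g in each mouse by group, and the summed CPM of 14 acute phase genes (kCPM), with the mean and SD of 6 mice in black. The month 0 mice stand above the month 2 oil mice for C4b, Cfb, C4bp and the acute phase sum and below them for C3ar1 and C8g.

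All 14 acute phase genes, C3 among them, were lower in month 2 oil than at month 0, with a median log2 fold change of -3.17. Their summed level was 149600 to 231700 CPM at month 0 and 19580 to 29600 in month 2 oil. Neutrophil markers moved the same way, from 47.3 to 117.6 summed CPM to 11.04 to 19.2. The part of an acute phase state in the month 0 values was not tested, and age, injections and time cannot be told apart. From month 2 to month 12 oil no member was called by edgeR, where 0.0717% of all genes were called (0.0391% higher, 0.0326% lower). In that comparison 9 members had an unadjusted p below 0.05 and DESeq2 called 2. Hc came nearest, with 1145 to 1318 CPM at month 2 and 1428 to 2119 at month 12 (0.55, edgeR adjusted p = 0.058), and was the 1 member whose groups did not overlap, as in 1.37% of all genes.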

How the data were processed

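RNA of 36 mouse livers was sequenced and the authors deposited 1 table of raw gene counts, with 32544 gene symbols and no normalization. Per the labels' protocols the libraries were made with a TruSeq stranded kit, and the submitters' processing notes name mm10, edgeR 3.30.3 and limma 3.44.3. The annotation and the strand setting behind the counts are not given in the sources used here, so overlapping genes and near-identical copies are uncertain. The groups came from the sample titles.

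All 36 libraries were fitted in 1 model with a mean for each of the 6 groups (edgeR 4.0.16 in R 4.3.3). TMM scaling, filterByExpr and the quasi-likelihood F-test were used, with Benjamini-Hochberg adjustment over 15338 genes, for 8 comparisons. Comparisons that share a group are not independent, and each group other than month 0 enters several of them. Levels are TMM-scaled CPM, and CPM per kb divides by the exon length of all transcripts in GENCODE vM21. Precision is limited by the spread of 6 mice a group, at 19403247 to 28917545 counts a library. The test was checked on simulated counts.

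All 30 members are named, and of 30 further complement genes at most 3 per direction and comparison by smallest p. The members and all lists, which also cover hepatocytes, macrophages, other liver cells, fat, mesothelium, pancreas, intestine, blood, acute phase and male-biased genes, were chosen with earlier results of these data known. Alternatives were other scalings, filters and references, DESeq2 1.42.0, limma-voom 3.58.1, a replicate block, fits of only the groups compared and leaving libraries out. Leaving out month 12 CCl4 replicates 2 and 6, or month 2 CCl4 replicate 1 with month 2 oil replicate 6, was chosen after seeing the data. Upstream windows are from RefSeq on GRCm38.p6.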

Additional observations from a re-analysis of the deposited data

Results flagged for a closer look

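Of 180 sets of 6 mice (30 genes in 6 groups), 16 held a mouse whose gap to the next exceeded Dixon's 95% critical share of the whole range, and chance gives about 1 in 20. Month 6 CCl4 replicate 2 did so for 4 genes, with 46.73 CPM of C3ar1 and 10.46 of C5ar1 as the highest mouse, and 203.7 of C8g and 31.29 of Cd59a as the lowest. Month 0 replicate 4 was the highest for C3 at 19222 CPM, Cfb at 2662 and C4bp at 1931, and it also had the highest acute phase sum of its group.

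Month 12 CCl4 replicate 6 stood above its group for C4b at 2193 CPM and Cfb at 1942. Month 12 oil replicate 2 was the highest for C7 at 13.86 CPM and the lowest for Cfi at 481.1, and replicate 4 of that group was the highest for C3 at 8666. Month 2 oil replicate 6 was the highest for C7 at 6.051 CPM and C5ar1 at 3.088, and replicate 5 for Mbl2 at 515.2. Month 6 CCl4 replicate 1 was the lowest for C1s1 at 449.9 CPM.

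The effect of CCl4 on the log2 scale was lower at month 12 than at month 2 for 13 genes by the interaction test of edgeR. The differences were -2.243 for C8b, -1.842 for C8a, -1.75 for C9 and -0.784 for C8g. They were -1.049 for Mbl1, -0.6923 for Masp2, -0.5593 for Masp1 and -0.7876 for Hc. Among the remaining genes they were -0.5904 for C1ra, -0.5865 for C1s1, -0.4249 for C2, -0.7578 for Serping1 and -0.829 for Cd55.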

How the results depend on the processing

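Scaling moved the most values. With library totals alone, 11 members were called at month 2 (6 with TMM), where 3160 of all genes were called higher and 179 lower. The sign of 7, 11 and 6 of the 30 members turned at months 2, 6 and 12, and 9 of these values were called under 1 of the scalings, none under both. At month 6 these 9 were C1ra (0.21), C1s1 (0.21) and Masp1 (0.11). At month 12 they were C2 (0.34), C4b (0.32), Mbl2 (0.21), Cfi (0.35), Cd55 (0.079) and Cd59a (0.21). By construction this scaling shifts all genes of a library together. Over the member values under settings that leave out no single mouse, 2103 kept direction and call. With the direction kept, 62 lost their call and 74 gained one. The sign turned for 9 values called under 1 of the settings compared and for 61 called under neither.

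The count of members called at month 2 was 3 with no filter on low counts and 2 without the 4 libraries with transcripts of other tissues (month 2 CCl4 replicates 1 and 6, month 2 oil replicate 2, month 12 oil replicate 2). At month 6 it was 5 against month 2 oil alone. From month 2 to month 12 oil, 2 members were called by DESeq2 and 2 when only the groups compared were fitted, against 0. From month 2 to month 6 CCl4, 1 member was called without the 4 libraries, against 2. The cause was not tested, other than that fewer libraries were fitted.

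Leaving out each mouse in turn gave 1 to 6 members called at month 2, 8 to 15 at month 6, 19 to 24 at month 12, 13 to 15 for the interaction, 12 to 15 from month 0 to month 2 oil, 0 to 1 from month 2 to month 12 oil, 0 to 2 from month 2 to month 6 CCl4 and 19 to 21 from month 6 to month 12 CCl4. The month 2 count was at its lowest, 1, without month 2 CCl4 replicate 3, and was 2 without month 2 oil replicate 3 and 3 without month 2 oil replicate 1 or 5. From month 2 to month 6 CCl4 it was 0 without month 6 CCl4 replicate 2 and 1 without month 6 CCl4 replicate 1 or 3 or month 2 CCl4 replicate 6. From month 2 to month 12 oil it was 1 without month 12 oil replicate 2 or 6.

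With the replicate number as a block, 5, 11 and 22 members were called at months 2, 6 and 12, 13 for the interaction and 14 from month 0 to month 2 oil. C6 at month 2 was the member that lost its call under the block (-0.64, edgeR adjusted p = 0.063). Mice that share a number did not deviate together, with a mean correlation of -0.036 over 90 pairs, and 3 of 36 mice correlated best with their own number. Other counts at month 12 were 23 with RLE size factors, 24 with DESeq2 and 21 with limma-voom. The difference between terminal components and C1q at month 12 was -2.60 to -2.39 over the mice left out, and -2.15 with C7 added. Cfd and C7, at a few CPM, are limited by depth, and the other members by the spread between mice.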

Other observations

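Other cell-type lists gave the surroundings of these changes in the same tests. The counts below stand beside 7%, 7.71% and 25.9% of all genes called higher at months 2, 6 and 12. For genes called lower these shares were 3.38%, 3.68% and 23.2%. Of 8 genes of stellate cells and fibroblasts, 4, 4 and 2 were called higher and 0, 0 and 2 lower with CCl4 at months 2, 6 and 12. Of 6 cholangiocyte genes, 3, 0 and 3 were called higher, with a median log2 fold change of 1.24 at month 12. Of 6 endothelial genes, 2, 1 and 3 were called higher, and 2 were called lower at month 12. Of 7 neutrophil genes, 6, 5 and 1 were called higher. Of 6 T and B cell genes, 0, 1 and 2 were called higher.

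None of 6 mesothelial and 5 pancreas genes was called by edgeR at any of these times, with 0, 1 and 2 mesothelial and no pancreas genes at an unadjusted p below 0.05. Single libraries of several groups held much of both. Of 3 intestine genes, 2 were called lower at month 12, and of 5 blood genes 1 was called higher and 1 lower. Of the 14 acute phase genes, 1, 1 and 2 were called higher and 0, 5 and 7 lower at months 2, 6 and 12.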
